A study of Mus musculus with 6 samples.

Results

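The aryl hydrocarbon receptor (AHR) pathway was described here through 9 genes in whole lung of GRdim/dim and GR+/+ mice after hemorrhagic shock (HS). The genes were the receptor Ahr, its DNA-binding partner Arnt, the repressors Ahrr and Tiparp, the CYP1 genes Cyp1a1, Cyp1a2 and Cyp1b1, and the detoxifying enzyme genes Nqo1 and Aldh3a1. They were taken by gene symbol from the 54532 genes of the count table, and each symbol matched 1 row. The set was proposed with the genotype difference of Cyp1a1 in these 6 libraries already known, so differences of its genes between genotypes are given as a description without p-values, also where the call rule for all genes is mentioned. The question of the study was which genes differ between the genotypes in the lung after HS.

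GRdim/dim mice carry a germline point mutation in the DNA-binding domain of Nr3c1, the gene of the glucocorticoid receptor (GR), which impairs dimerization of the receptor in all cells. The controls were GR+/+ littermates, and both genotypes had a mixed 129/SvEv and C57BL/6 background and an age of 10 to 16 weeks. All 6 mice, 3 of each genotype, were anesthetized and ventilated, were held in HS at a mean arterial pressure of 35 mmHg for 1 h, received their shed blood back and were then resuscitated for 4 h with fluids and norepinephrine. One mouse was operated per day, so that day and mouse cannot be told apart. No lung without shock was among the 6 libraries, so no value below says what HS did to a gene. According to the methods of the study, GR+/+ comprised 2 females and 1 male and GRdim/dim 1 female and 2 males.

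AHR is a ligand-activated transcription factor of the bHLH-PAS family. It resides in the cytosol in a complex with the chaperone HSP90, moves to the nucleus when it binds a ligand such as dioxin, a polycyclic aromatic hydrocarbon or a tryptophan metabolite, pairs with ARNT and binds the dioxin response element. The CYP1 enzymes that it induces oxidize aromatic hydrocarbons and also clear AHR ligands, while AHRR and TIPARP, both induced by AHR, dampen the receptor. In the lung, CYP1A1 is known as a strongly inducible enzyme of endothelial and epithelial cells, whereas CYP1A2 is mainly an enzyme of the liver.

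The libraries held 15687734 to 32082940 counted reads, and 16568 genes had enough reads to be tested. Levels are given in CPM, the counts scaled to a library total of 1000000 after TMM scaling. Comparisons between genes use RPKM, the CPM divided by the gene length in kilobases. Xist and the Y-linked Ddx3y split the libraries into GR+/+ 2 and 3 and GRdim/dim 2 on the female side (Xist 309 to 463 CPM) and GR+/+ 1 and GRdim/dim 1 and 3 on the male side (Xist 0.258 to 0.837 CPM), with numbers per genotype as in the methods. Nr3c1 itself was measured at 148 ± 12.2 CPM in GR+/+ lungs and at 143 ± 20.2 CPM in GRdim/dim lungs (SD, n = 3 each; edgeR, log2 fold change -0.05, SE 0.17, adjusted p = 0.961), and read counts per gene cannot show a point mutation. Markers of endothelial, club and alveolar type 2 cells were all measured in every library.

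The sequences before the transcription start of 5 genes are shown because AHR and ARNT act on their targets through the dioxin response element, and because Cyp1a1 and Cyp1a2 are neighbours. Each run gives the 250 bases before the RefSeq start on the strand of the gene (build GRCm38.p6). Capitals mark the core of the dioxin response element, GCGTG, or its reverse complement CACGC.
Cyp1a1, chr9:57697363-57697612, plus strand: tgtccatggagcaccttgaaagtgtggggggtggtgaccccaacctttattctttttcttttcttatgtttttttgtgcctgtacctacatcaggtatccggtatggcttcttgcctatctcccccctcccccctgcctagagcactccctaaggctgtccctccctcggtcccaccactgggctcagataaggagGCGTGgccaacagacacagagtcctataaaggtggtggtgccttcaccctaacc
Cyp1a2, chr9:57683656-57683905, minus strand: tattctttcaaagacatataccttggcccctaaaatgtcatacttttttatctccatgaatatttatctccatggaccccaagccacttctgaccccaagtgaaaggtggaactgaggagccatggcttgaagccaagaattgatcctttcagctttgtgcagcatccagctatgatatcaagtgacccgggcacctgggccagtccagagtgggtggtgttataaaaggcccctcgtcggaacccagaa
Cyp1b1, chr17:79715062-79715311, minus strand: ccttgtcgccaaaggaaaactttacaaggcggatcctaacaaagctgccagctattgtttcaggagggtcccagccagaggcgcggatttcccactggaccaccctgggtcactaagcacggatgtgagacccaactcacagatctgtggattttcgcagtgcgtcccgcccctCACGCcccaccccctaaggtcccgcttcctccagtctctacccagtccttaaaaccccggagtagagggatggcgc
Ahrr, chr13:74292332-74292581, minus strand: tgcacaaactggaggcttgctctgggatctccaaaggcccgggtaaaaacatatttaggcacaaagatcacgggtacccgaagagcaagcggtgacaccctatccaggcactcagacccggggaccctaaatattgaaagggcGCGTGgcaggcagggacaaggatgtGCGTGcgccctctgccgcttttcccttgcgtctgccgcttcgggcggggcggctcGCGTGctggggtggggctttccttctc
Tiparp, chr3:65528197-65528446, plus strand: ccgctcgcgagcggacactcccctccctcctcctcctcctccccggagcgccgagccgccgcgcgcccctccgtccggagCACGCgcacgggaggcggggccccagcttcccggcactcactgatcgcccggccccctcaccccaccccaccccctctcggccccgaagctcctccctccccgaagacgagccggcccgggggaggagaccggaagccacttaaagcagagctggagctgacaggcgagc

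RefSeq promoters were matched for 7 of the 9 genes, and those of Ahr and Aldh3a1 were not analysed here. Cyp1a1 held 1 GCGTG, which began 54 bases before the start, and a TATAAA 30 bases before it. Cyp1a2 held a TATAAA 29 bases before its start and no GCGTG in this window. Ahrr held 3 matches, at 107, 82 and 27 bases, Cyp1b1 1 on the opposite strand at 76 bases, Tiparp 1 on the opposite strand at 170 bases and Arnt 1 at 29 bases, while Nqo1 held none. Searched on both strands, GCGTG lay in 28.2% of the 32851 mouse promoters of the same length, and 3 or more matches lay in 2.77%. One match is therefore common, and it is a description of letters, not a binding site.

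The antioxidant response element, searched as TGACNNNGC on both strands, matched Arnt at 50 and, on the opposite strand, 127 bases before the start and none of the other 6 promoters (10.2% of all promoters). The full palindromic glucocorticoid response element and its half-site AGAACA, searched on both strands, had no match in any of the 7 windows, and were found in 0.00913% and 16.1% of all promoters. The response elements of Cyp1a1 are known to lie mostly further upstream than this window reaches.

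**Figure D1:**
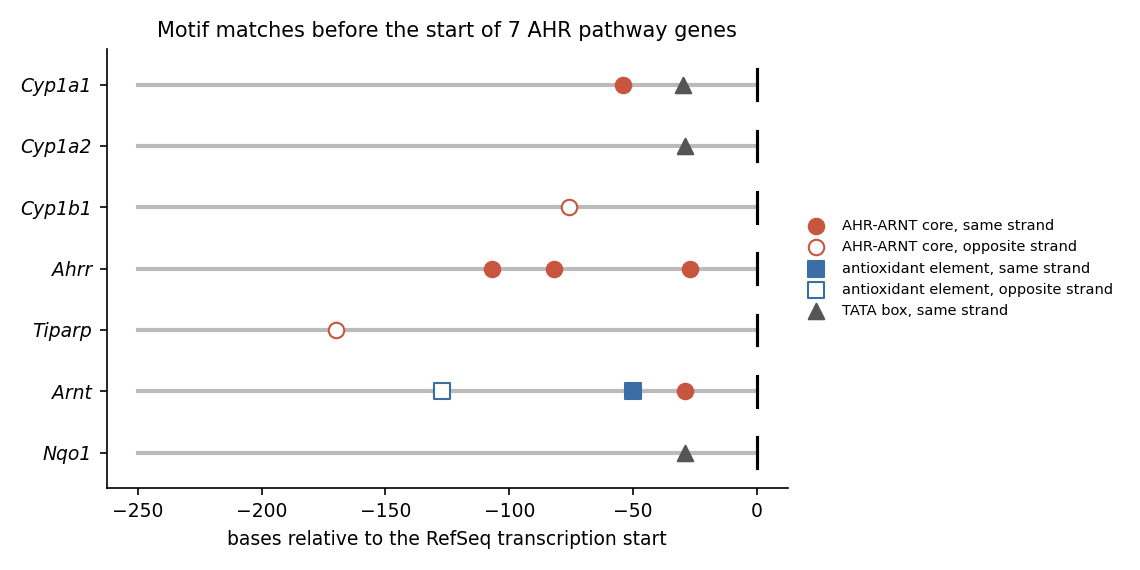
Positions of motif matches in the 250 bases before the RefSeq start of 7 AHR pathway genes. The x axis gives bases relative to the start, each row is a gene, symbols mark the AHR-ARNT core GCGTG (circles), the antioxidant element TGACNNNGC (squares) and the TATA box TATAAA (triangles), and open symbols lie on the opposite strand. Cyp1a1 has 1 GCGTG at 54 bases, and Ahrr has 3.

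Of the 9 genes, 7 had enough reads to be tested, and 1 of these 7, Cyp1a1, passed the threshold used for all genes (edgeR's quasi-likelihood test, Benjamini-Hochberg adjusted p under 0.05 and a log2 fold change beyond 0.5). Over all genes tested, 28 of 16568, or 0.169%, passed it, 0.0724% with a higher and 0.0966% with a lower level in GRdim/dim lungs. Nothing is read from that share, because the genes were chosen with this comparison known. Ahrr and Cyp1a2 had too few reads for a test. The median log2 fold change of the 7 tested genes was -0.05 and that of all 16568 genes was 0.01, and 2 of the 7 were estimated higher and 5 lower in GRdim/dim lungs. No overlap between the GR+/+ and GRdim/dim libraries was seen for 1 of the 7 higher in GRdim/dim (Aldh3a1) and for 1 lower (Cyp1a1). The same held for 7.77% and 7.05% of all genes tested.

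Cyp1a1 encodes the most inducible of the CYP1 monooxygenases and is the classic readout of AHR activity (ENSMUSG00000032315, chr9:57687928-57703824, plus strand of GRCm38, as for all gene positions here). Its level was 16.7, 24.3 and 22.9 CPM in GR+/+ replicates 1, 2 and 3 and 0.809, 2.28 and 2.20 CPM in GRdim/dim replicates 1, 2 and 3. All GRdim/dim libraries lay below all GR+/+ libraries, and the highest GRdim/dim library was still several-fold under the lowest GR+/+ library. Mean levels were 21.3 ± 4.05 CPM for GR+/+ and 1.76 ± 0.828 CPM for GRdim/dim (SD, n = 3 each), a 12.1-fold lower level. The log2 fold change of the fit was -3.59 with an SE of 0.38 (95% interval -4.33 to -2.84). These values are those by which the gene came into view.

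The GRdim/dim values of Cyp1a1 rest on 15, 55 and 34 reads against 279, 405 and 721 in GR+/+. Counting error alone gives GRdim/dim replicate 1 a 95% exact interval of 0.453 to 1.33 CPM, and replicates 2 and 3 intervals of 1.72 to 2.97 and 1.52 to 3.07 CPM. Replicate 1 thus lay below the other GRdim/dim lungs by more than counting error, and in GR+/+ the same was true of replicate 1, with 14.8 to 18.7 CPM against 22.0 to 26.8 and 21.3 to 24.6 CPM. Such intervals cover counting error only and not the variation between mice. The spread relative to the mean was 19.0% in GR+/+ and 46.9% in GRdim/dim.

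**Figure D2:**
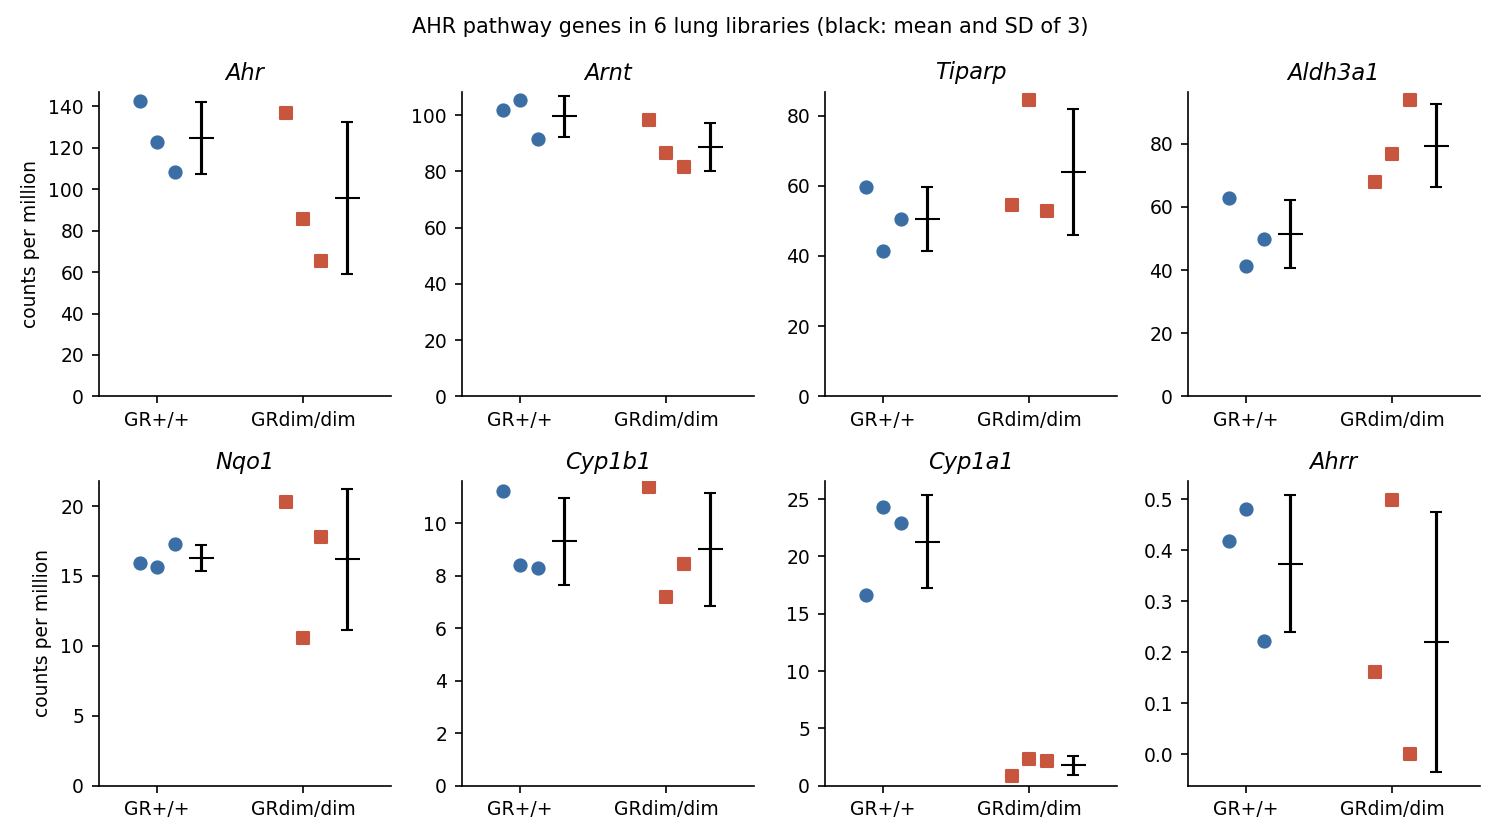
Level in CPM (y axis, linear, each panel with its own scale) of the 8 AHR pathway genes with reads, for 3 GR+/+ and 3 GRdim/dim lungs. Each point is a library, and black bars give the mean and SD. Cyp1a1 lies at 16.7 to 24.3 CPM in GR+/+ and 0.809 to 2.28 CPM in GRdim/dim, Aldh3a1 lies higher in GRdim/dim without overlap, and the genotypes overlap in the other panels.

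The difference of Cyp1a1 was of like size in both sexes. Female lungs had 23.6 CPM (n = 2) in GR+/+ and 2.28 CPM (n = 1) in GRdim/dim, a 10.3-fold lower level, and male lungs 16.7 CPM (n = 1) and 1.502 CPM (n = 2), an 11.1-fold lower level. With sex-linked expression as a covariate the log2 fold change was -3.41. With any 1 library left out it lay between -3.84 and -3.24.

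Cyp1a2, the hepatic member of the family, lies beside Cyp1a1 on the opposite strand (ENSMUSG00000032310, chr9:57676937-57683703, minus strand). The gene bodies lie 4224 bases apart and the RefSeq starts 13958 bases apart. The Cyp1a1 window shown above lies inside the deposited gene body, which begins before the RefSeq start. No read was counted on Cyp1a2 in any of the 6 libraries. A count of 0 allows up to 3 reads, which is 0.0953 to 0.194 CPM depending on the library. Per length, the measured Cyp1a1 level was 67.2-, 97.5- and 174-fold above this limit in GR+/+ replicates 1, 2 and 3. In GRdim/dim replicates 1, 2 and 3 it was 3.61-, 13.2- and 8.19-fold above the limit. Counting error of Cyp1a1 itself is not part of these ratios. Of the 31-base stretches of the Cyp1a1 transcripts, 5.52% also occur in Cyp1a2 and in no other gene. Reads lying wholly within such shared sequence could not be placed on either gene alone.

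Cyp1b1, the CYP1 enzyme found mainly outside the liver and active on estrogens as well as hydrocarbons, did not share the difference of Cyp1a1 (ENSMUSG00000024087, chr17:79706953-79715041, minus strand). It had 11.2, 8.39 and 8.29 CPM in GR+/+ and 11.4, 7.19 and 8.46 CPM in GRdim/dim libraries, and the ranges overlapped almost wholly. The means were 9.31 ± 1.67 CPM (SD, n = 3) and 9.01 ± 2.15 CPM (SD, n = 3), with a log2 fold change of -0.05 (SE 0.27, 95% interval -0.58 to 0.48). The sign of this estimate turned in 2 of 12 alternatives. Within each library, the ratio of Cyp1a1 to Cyp1b1 in RPKM was 2.73, 5.32 and 5.08 in GR+/+ and 0.131, 0.585 and 0.478 in GRdim/dim lungs, so Cyp1a1 was the higher CYP1 gene in every GR+/+ lung and the lower in every GRdim/dim lung.

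The receptor gene Ahr (ENSMUSG00000019256, chr12:35497974-35535038, minus strand) was well measured, with 1012 to 3403 reads per library. It had 143, 123 and 108 CPM in GR+/+ and 137, 85.4 and 65.4 CPM in GRdim/dim lungs. One GRdim/dim lung lay at the level of the GR+/+ lungs and the others lay below them. The means were 125 ± 17.4 CPM (SD, n = 3) and 95.8 ± 36.8 CPM (SD, n = 3), with a log2 fold change of -0.38 (SE 0.25, 95% interval -0.87 to 0.12). Without GRdim/dim replicate 1 the estimate was -0.72 and without GRdim/dim replicate 3 it was -0.16.

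Arnt, the shared partner of AHR and of the hypoxia-inducible factors, varied little between lungs (ENSMUSG00000015522, chr3:95434388-95497240, plus strand). Its level was 102, 105 and 91.5 CPM in GR+/+ and 98.2, 86.4 and 81.6 CPM in GRdim/dim lungs, with overlapping ranges. The means were 99.6 ± 7.25 and 88.8 ± 8.55 CPM (SD, n = 3 each), a log2 fold change of -0.17 (SE 0.16, 95% interval -0.47 to 0.14). Per length, Ahr exceeded Arnt in every lung, with an RPKM ratio of 1.51 to 1.82 in GR+/+ and 1.04 to 1.81 in GRdim/dim.

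Ahrr, which competes with AHR for ARNT and represses the same targets, was close to absent (ENSMUSG00000021575, chr13:74211118-74292331, minus strand). It had 7, 8 and 7 reads in GR+/+ and 3, 12 and 0 reads in GRdim/dim lungs. The highest and the lowest library were both GRdim/dim, and no difference was detectable at this depth. Its mean level was 0.0396 RPKM in GR+/+ and 0.0233 RPKM in GRdim/dim.

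Tiparp encodes an ADP-ribosyltransferase that modifies AHR and promotes its loss (ENSMUSG00000034640, chr3:65528410-65555518, plus strand). Its level was 59.8, 41.3 and 50.5 CPM in GR+/+ and 54.6, 84.5 and 52.7 CPM in GRdim/dim lungs, and all but GRdim/dim replicate 2 lay within the GR+/+ range. The log2 fold change was 0.34 (SE 0.23, 95% interval -0.10 to 0.78), and without GRdim/dim replicate 2 it was 0.09. An antisense gene, 4931440P22Rik, overlaps 223 of the 4358 exon bases of Tiparp with 28 to 67 reads per library, and whether the counting used strand is not given in the sources used here.

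Nqo1, a quinone reductase induced by AHR and by NRF2 (ENSMUSG00000003849, chr8:107388225-107403206, minus strand), had 15.9, 15.6 and 17.3 CPM in GR+/+ and 20.3, 10.6 and 17.8 CPM in GRdim/dim lungs. The GR+/+ lungs lay close together, and the GRdim/dim lungs lay on both sides of them. The means were 16.3 ± 0.898 and 16.2 ± 5.05 CPM (SD, n = 3 each), and the log2 fold change of -0.01 (SE 0.26, 95% interval -0.52 to 0.50) turned its sign in 2 of 12 alternatives.

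Aldh3a1, an aldehyde dehydrogenase that is a known AHR target, differed in the opposite direction from Cyp1a1 (ENSMUSG00000019102, chr11:61207537-61218421, plus strand). Its level was 62.9, 41.4 and 49.8 CPM in GR+/+ and 67.8, 76.6 and 93.7 CPM in GRdim/dim lungs. All GRdim/dim libraries lay above all GR+/+ libraries, by a small margin between GR+/+ replicate 1 and GRdim/dim replicate 1. The means were 51.4 ± 10.8 and 79.4 ± 13.2 CPM (SD, n = 3 each), a 1.54-fold higher level, with a log2 fold change of 0.63 (SE 0.20, 95% interval 0.23 to 1.02). The RPKM of Aldh3a1 was 5.42, 2.45 and 3.12 times that of Cyp1a1 in GR+/+ lungs and 120, 48.1 and 61.2 times in GRdim/dim lungs.

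Ordered by mean RPKM in GR+/+ lungs, Aldh3a1 (26.5) stood first, followed by Ahr (20.2), Arnt (12.4), Tiparp (11.6), Nqo1 (10.5), Cyp1a1 (7.64), Cyp1b1 (1.81) and Ahrr (0.0396), with Cyp1a2 at 0. The ranges over the 3 lungs overlapped between Aldh3a1 and Ahr, between Arnt and Tiparp and between Tiparp and Nqo1, and the other neighbours with reads were separate. In GRdim/dim lungs the mean RPKM was 40.9 for Aldh3a1, 15.5 for Ahr, 14.7 for Tiparp, 11.1 for Arnt, 10.4 for Nqo1, 1.76 for Cyp1b1, 0.633 for Cyp1a1 and 0.0233 for Ahrr. Ahr, Tiparp, Arnt and Nqo1 overlapped there with their neighbours. Cyp1a1 moved from the sixth to the seventh place, below Cyp1b1, without overlap in either genotype.

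Within a genotype, the members did not move as one. GRdim/dim replicate 1 had the lowest Cyp1a1 of its genotype (log2 CPM 0.91 below the genotype mean), while Ahr (0.58 above), Cyp1b1 (0.36 above), Nqo1 (0.38 above) and Arnt (0.15 above) were highest there. GR+/+ replicate 1 likewise had the lowest Cyp1a1 (-0.33) and the highest Ahr (0.21) and Cyp1b1 (0.28) of its genotype. Aldh3a1 (0.31) and Tiparp (0.26) were also highest there, but lay below the mean in GRdim/dim replicate 1 (-0.21 and -0.19). GR+/+ replicate 1 is the only male GR+/+ library, so its sex and the mouse itself cannot be told apart. Tiparp was highest in GRdim/dim replicate 2 (0.44), where Nqo1 was lowest (-0.56). With 3 lungs per genotype these are single values, and no correlation between genes was computed.

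**Figure D3:**
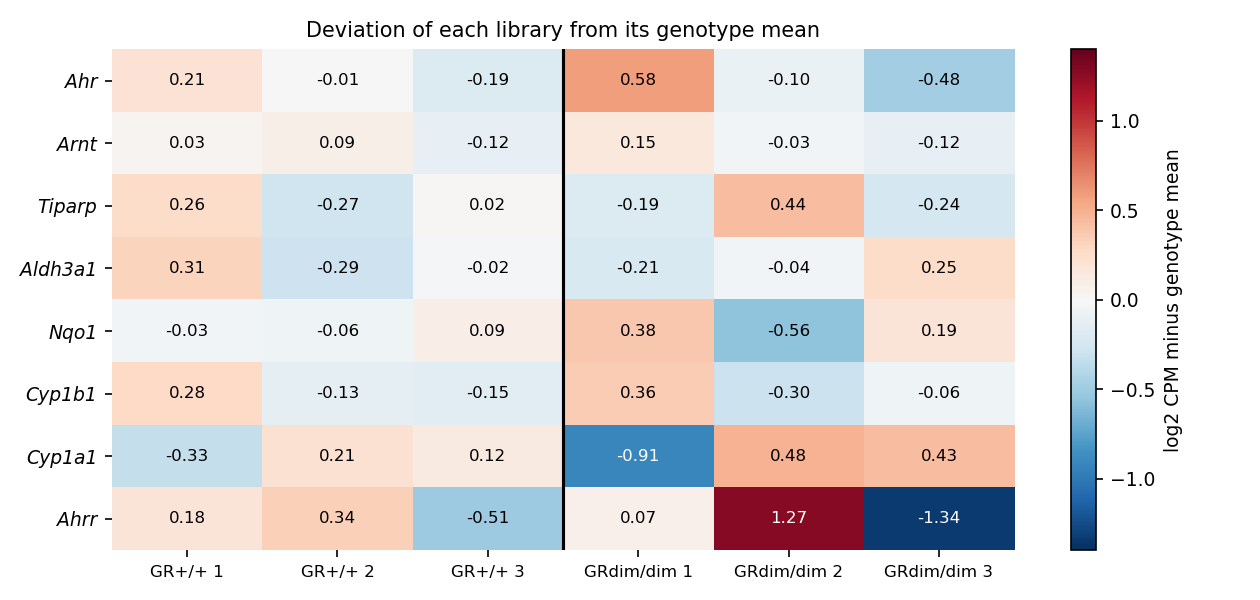
Deviation of each library (columns) from the mean of its genotype, in log2 CPM, for the 8 AHR pathway genes with reads (rows), with red above and blue below the mean. In GRdim/dim replicate 1, Cyp1a1 is at -0.91 while Ahr is at 0.58, and Arnt stays within 0.15 of its mean in every library. Ahrr rests on 0 to 12 reads.

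The surrounding pathway was examined in 6 lists of genes chosen by function. They covered the AHR chaperone complex and coregulators, other AHR targets, enzymes of tryptophan breakdown and other bHLH-PAS factors. They also covered NRF2 targets with the NRF2 inhibitor Keap1, and the redox partners and heme enzymes that P450 enzymes need. The 6 lists held 79 genes, of which 71 were tested. None of the 71 passed the threshold with edgeR, and 1, Per2, passed it with DESeq2, against 274 of 16150 genes (1.7%) over all genes tested with DESeq2. At an unadjusted p under 0.05, 2 of the 71 were higher and 5 lower, 9.86% of the list genes. Over all genes it was 9.6%, with 4.91% higher and 4.68% lower. The median log2 fold change of the 71 was 0.02.

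Among the 16 genes of the AHR complex and coregulators, 9 were estimated higher and 7 lower in GRdim/dim lungs (median log2 fold change 0.06). The smallest unadjusted p-values belonged to Arnt2, a paralog of Arnt best known from neurons and kidney, and to Ep300, a histone acetyltransferase that serves AHR as a coactivator. Arnt2 was expressed at a low level of 0.714 ± 0.155 CPM in GR+/+ and 1.65 ± 0.426 CPM in GRdim/dim (SD, n = 3 each; log2 fold change 1.20, SE 0.44, edgeR adjusted p = 0.425). Ep300 had a log2 fold change of -0.44 (SE 0.19, edgeR adjusted p = 0.497).

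Of the 14 other AHR targets, 12 were tested, with 3 estimated higher and 9 lower (median log2 fold change -0.11). Cyp2a5, a P450 of airway and liver that oxidizes nicotine and coumarin, had 116, 135 and 164 CPM in GR+/+ and 56.6, 95.8 and 109 CPM in GRdim/dim lungs. The genotypes did not overlap, yet the difference did not pass the threshold (log2 fold change -0.67, SE 0.24, edgeR adjusted p = 0.428). Xdh, the gene of xanthine dehydrogenase, followed with -0.51 (SE 0.31, edgeR adjusted p = 0.667). Il22, a cytokine gene that AHR drives in lymphoid cells, had 0 reads in all 6 libraries.

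Tryptophan breakdown was covered by 8 tested genes of 11, with 5 estimated higher and 3 lower (median log2 fold change 0.09). None had an unadjusted p under 0.05. The smallest were those of Haao, which acts late in the kynurenine pathway (log2 fold change 0.83, SE 0.43, edgeR adjusted p = 0.587), and of Kyat3, which makes kynurenic acid (-0.38, SE 0.25, edgeR adjusted p = 0.696).

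Among the 12 tested bHLH-PAS factors, 6 were estimated higher and 6 lower (median log2 fold change -0.08). Per2, a repressor of the circadian clock and a known target of GR, had 136, 160 and 102 CPM in GR+/+ and 57.7, 45.2 and 74.5 CPM in GRdim/dim lungs, without overlap. Its log2 fold change was -1.17 (SE 0.23), with an adjusted p of 0.0997 by edgeR and of 0.000696 by DESeq2. Hif3a, a hypoxia-inducible factor that pairs with ARNT, had 20.3, 20.3 and 7.53 CPM in GR+/+ and 9.004, 9.014 and 2.65 CPM in GRdim/dim lungs, with overlap (log2 fold change -1.21, SE 0.49, edgeR adjusted p = 0.472).

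The 11 genes of the NRF2 list, which holds targets beside Nqo1 and also Keap1, were all tested. Of these, 8 were estimated higher and 3, Keap1 among them, lower (median log2 fold change 0.06). None had an unadjusted p under 0.05. Keap1, the inhibitor of NRF2, had the smallest p-value there (log2 fold change -0.35, SE 0.17, edgeR adjusted p = 0.554), followed by Gsr, the glutathione reductase gene (0.23, SE 0.16, edgeR adjusted p = 0.709). Of the 12 P450 redox partners and heme enzymes, 7 were estimated higher and 5 lower (median log2 fold change 0.05). Alad, an early enzyme of heme synthesis, had 63.0 ± 2.89 CPM in GR+/+ and 88.0 ± 17.1 CPM in GRdim/dim lungs (SD, n = 3 each; log2 fold change 0.48, SE 0.18, edgeR adjusted p = 0.431).

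**Figure D4:**
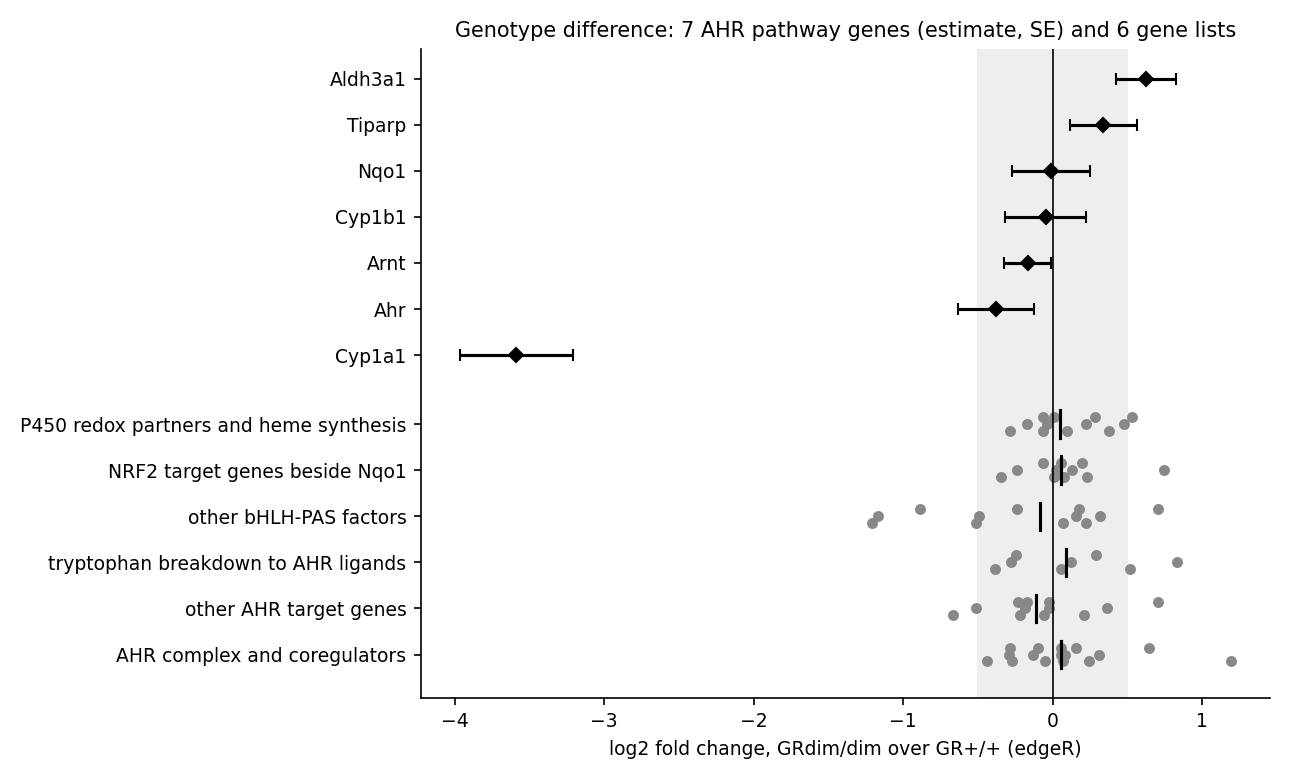
Log2 fold change, GRdim/dim over GR+/+ (x axis), of the 7 tested AHR pathway genes with their SE and of the tested genes of 6 lists (points, with the list median as a bar). The grey band marks fold changes within 0.5. Cyp1a1 lies at -3.59 and Aldh3a1 at 0.63, while the list medians lie between -0.11 and 0.09.

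In a whole-lung library, fewer cells of a type and less RNA per cell cannot be told apart. Markers of cell types that could carry Cyp1a1 were therefore summed. The 12 endothelial markers summed to 4189 to 6454 CPM in GR+/+ and 4800 to 5472 CPM in GRdim/dim libraries, the 7 club cell markers to 17169 to 32481 and 22703 to 29326 CPM, and the 7 alveolar type 2 markers to 15785 to 23278 and 15536 to 24312 CPM, so the summed levels of these types overlapped between genotypes. The club cell sum is mostly Scgb1a1, the main secretory protein of these cells, and without it the other 6 summed to 3347 to 4968 and 2706 to 3912 CPM, again with overlap. Of the 7 club cell markers, 3 were lower in GRdim/dim libraries without overlap and had an unadjusted p under 0.05, which is 42.9% of the list against 9.6% of all genes, namely Scgb3a1 (log2 fold change -1.08, SE 0.31, edgeR adjusted p = 0.289), the mucin gene Muc5b (-1.08, SE 0.32, edgeR adjusted p = 0.300) and Aldh1a1 (-0.51, SE 0.21, edgeR adjusted p = 0.471). Of the 12 endothelial markers, 3 were higher and 1 lower at an unadjusted p under 0.05, which is 33.3% of the list against 9.6% of all genes. The median log2 fold changes of the endothelial, club and alveolar type 2 lists were -0.19, -0.31 and -0.07, and no marker in any of the 14 lists passed the threshold with edgeR. With DESeq2, 1 endothelial, 2 club cell, 1 alveolar macrophage, 1 neutrophil and 1 T and NK cell marker passed it. Alveolar type 1 (3135 to 5013 against 2994 to 4536 CPM), ciliated (958 to 1442 against 797 to 1245 CPM), fibroblast (1006 to 2370 against 1583 to 2118 CPM), smooth muscle and pericyte (330 to 886 against 646 to 814 CPM), squamous and basal (3.48 to 10.996 against 3.24 to 8.14 CPM) and erythroid markers (1110 to 4141 against 1728 to 4336 CPM) overlapped as well.

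Sums of several leukocyte marker lists differed between genotypes, and no single marker passed the threshold with edgeR. The 7 alveolar macrophage markers summed to 339 to 385 CPM in GR+/+ and 180 to 271 CPM in GRdim/dim libraries, with 6 of 7 estimated lower. Chil3, a chitinase-like protein gene, makes that difference (log2 fold change -0.88, SE 0.21, edgeR adjusted p = 0.202). Without it the other 6 summed to 88.3 to 120 and 84.3 to 110 CPM and overlapped. On the log2 scale Pparg lay at -0.01, Mrc1 at -0.03 and Siglecf at 0.32. The median log2 fold change of the 7 was -0.39, and Marco, Ear2 and Fabp1 lay at or below it. The 7 T and NK cell markers summed to 10.6 to 26.6 and 36.7 to 44.3 CPM and the 5 B cell markers to 48.8 to 115 and 123 to 430 CPM, all estimated higher in GRdim/dim, without overlap of the sums, also without the most abundant gene of each list (Trac and Ighm). Neutrophil markers summed to 248 to 484 and 343 to 1095 CPM, with overlap and all 6 estimated higher. At an unadjusted edgeR p under 0.05, 5 T and NK cell markers (71.4%) and 4 B cell markers (80%) were higher. The same held for 2 neutrophil markers (33.3%), while 1 alveolar macrophage marker (14.3%) was lower, against 9.6% of all genes in either direction. The part of these shifts and of the club cell markers in the values of the AHR pathway genes was not tested. Hepatocyte markers were low except in GR+/+ replicate 3 (1.85 to 61.7 CPM in GR+/+, 1.19 to 3.75 CPM in GRdim/dim). Without Alb, the other 5 summed to 1.49 to 14.2 CPM in GR+/+ and 0.593 to 1.81 CPM in GRdim/dim libraries. Cyp1a2 had no read in any library, and a share of liver RNA was not tested.

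The genes with the profile most like that of Cyp1a1 were found by the root mean square difference of log2 CPM over the 6 libraries. Each gene was centred on its own mean. The search covered 16561 tested genes and left out the AHR pathway genes themselves. The median gene differed from Cyp1a1 by 1.90. The closest were the lincRNA gene Gm10032 (0.475), Rbfox3, a splicing factor gene known from neurons (0.735), Sult1a1, a phenol sulfotransferase gene (0.788), the antisense gene Gm12473 (0.865) and Scube2, a gene of a secreted protein that aids hedgehog release (0.867). Since Cyp1a1 differs so strongly between genotypes, any gene near it has to be lower in GRdim/dim lungs, and its values are a description.

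Gm10032 had 15, 23 and 30 reads in GR+/+ and 0 in every GRdim/dim library. Its mean GR+/+ level was 6.72-fold above a limit of 3 reads per GRdim/dim library, without the counting error of the GR+/+ reads. Sult1a1, which conjugates phenols after oxidation, had 115, 145 and 107 CPM in GR+/+ and 21.4, 29.9 and 27.2 CPM in GRdim/dim lungs (log2 fold change -2.23, SE 0.20). Scube2 had 46.9, 59.8 and 41.3 CPM against 9.17, 15.7 and 7.04 CPM (-2.20, SE 0.30). Rbfox3 (-2.59, SE 0.34) and Gm12473 (-2.03, SE 0.36) lay lower too, each without overlap, and Gm12473 was the 1 of the 5 that did not pass the threshold. The other 8 AHR pathway genes were left out of the search, so none of them could be among these 5.

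**Figure D5:**
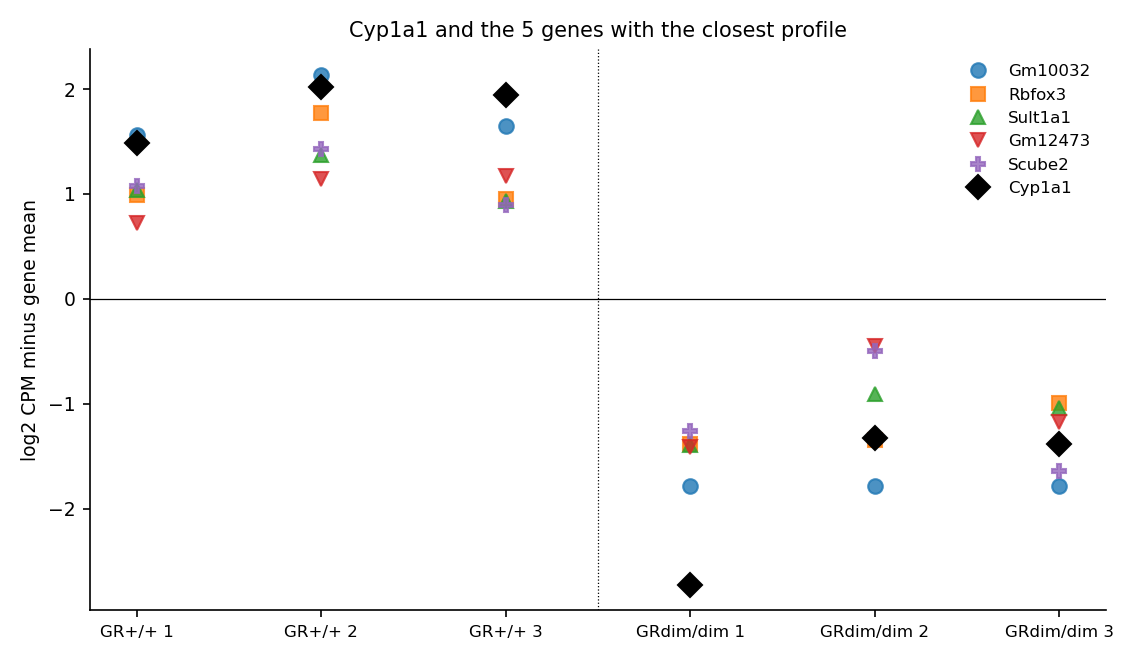
Level of Cyp1a1 and of the 5 genes with the closest profile in the 6 lung libraries, as log2 CPM minus the mean of each gene (y axis), with 1 symbol per gene and Cyp1a1 as black diamonds. All 6 genes lie above their mean in the GR+/+ libraries and below it in the GRdim/dim libraries.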

How the data were processed

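RNA from whole lung was captured by poly(A) and sequenced, 1 library per mouse. The authors deposited raw read counts for 54532 Ensembl genes with gene length and coordinates, which are those of GRCm38. The submitters' processing notes name mm10 and DESeq2. The aligner, the counting tool, the gene annotation and whether strand was used are not given in the sources used here. No count row lacked a gene name.

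Counts were filtered with filterByExpr, scaled by TMM and tested in edgeR 4.0.16 (R 4.3.3; glmQLFit with robust estimation, glmQLFTest) on all 16568 genes that passed, 3 GRdim/dim against 3 GR+/+ libraries without covariates, with Benjamini-Hochberg adjustment over all of them. SEs are the unshrunk log2 fold change divided by the square root of F. For log2 CPM a prior count of 2 was used. The thresholds were those of the study. DESeq2 1.42.0 and the other alternatives of the closing section were run on the same counts. The scripts were tested on simulated data, 3 sets of which held 200 genes with a known change. Totals of 15687734 to 32082940 reads set the precision of low genes. Libraries of the same genotype differed beyond counting error, and the 6 libraries were treated as 6 mice.

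The 9 genes and all lists were chosen with earlier results of these data known. The genes named besides the 9 were the genes past the threshold and the 2 with the smallest unadjusted p of each pathway list, the 5 genes nearest to Cyp1a1 and Nr3c1, and 1 gene that this rule names is not reported here. Il22, Aadat, Alb and the single cell type markers were named, and marker sums without the most abundant gene computed, after the values were seen. Promoter sequences came from RefSeq (GRCm38.p6), and shared 31-base stretches and overlapping genes from GENCODE transcripts of the same build. Deposited coordinates equalled those of that annotation for 8 of the 9 genes, all but Cyp1b1. Replicate numbers were not used as a pairing in the reported fit. Protein sequences were not analysed here.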

Additional observations from a re-analysis of the deposited data

Results flagged for a closer look

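Tiparp and Nqo1 differed between genotypes in opposite directions in the libraries of the 2 sexes, without overlap within either. The log2 ratio of GRdim/dim over GR+/+ was 0.88 in female and -0.16 in male libraries for Tiparp. For Nqo1 it was -0.64 in female and 0.26 in male libraries. Each contrast sets 2 libraries against 1, and the difference between the sexes was not tested. The same pattern was met by 2034 of the 16568 genes tested, or 12.3%. The only female GRdim/dim library is replicate 2, so that its sex and the mouse itself cannot be told apart.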

How the results depend on the processing

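The log2 fold change of Cyp1a1, the gene through which the 9 were chosen, lay between -3.84 and -3.24 over 12 alternatives, which only describes the values it was chosen by. The number of genes past the threshold over the whole table was 28 and moved to 522 without a filter on low counts (31368 genes), to 274 with DESeq2 and to between 4 (without GR+/+ replicate 2) and 22 (without GRdim/dim replicate 1) when a library was left out, with fewer samples in each fit; the cause of the other moves was not tested. Of the pathway list genes, 0 passed in the reported fit, 2 (Per2 and Hif3a) without the filter and 1 (Per2) with DESeq2. Per2 then had an adjusted p of 6.0e-06 and 0.000696, against a range of 6.0e-06 to 0.291 over its 12 alternatives, and Hif3a one of 0.00485 without the filter, against 0.00485 to 0.804. The fitted log2 fold change of Gm10032, which has no read in GRdim/dim, was -6.80 with DESeq2 and depends on the prior. RLE scaling (29 genes), a minimum of 10 counts in every library (29), sex-linked expression as a covariate (20) and no fold threshold (28) stayed within 1.5 times of 28. With the replicate number as a block, 34 genes passed, 19 of them among the 28, and Cyp1a1 had a log2 fold change of -3.67. The block changed no call among the 9 genes and the lists. Libraries with the same number correlated at 0.22, 0.04 and -0.05, and those with different numbers at -0.27 to 0.19. With 3 libraries per genotype these values cannot decide whether the numbers mark a pairing, and the labels name none. Ahrr and Cyp1a2 are limited by depth, and 3 lungs per genotype limit every estimate.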

Other observations

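Aadat, which makes kynurenic acid, an AHR ligand, had 177 reads in GR+/+ replicate 2 and 0 to 8 reads in each of the other 5 libraries, so its level of 10.6 CPM belongs to 1 lung. Cyp1a1 had 24.3 CPM in that lung and 22.9 CPM in GR+/+ replicate 3, where Aadat had 1 read. A link between Aadat and Cyp1a1 was not tested. The hepatocyte gene Alb had 1495 reads in GR+/+ replicate 3.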
